A study of Mus musculus with 12 samples.

Results

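The effect of 2 neuroblastoma tumor-conditioned media (TCM) on macrophages was compared in the presence of the Syk inhibitor R788 (fostamatinib), using the 2 libraries labelled NB9464 TCM + R788 against the 2 labelled NBT3L TCM + R788. These were 4 of the 12 libraries of the series, and the genes described were all those with at least 10 counts in at least 2 of the 12 libraries, which were 16281 of the 54232 genes counted. The cells were bone marrow derived macrophages (BMDMs) of wild-type C57BL/6 mice aged 6 to 8 weeks, cultured for 5 days with M-CSF and then incubated for 24 h with TCM and 500 nM R788. NB9464 is a mouse neuroblastoma line labelled as carrying amplified MYCN, and NBT3L is labelled as not carrying it. All 4 libraries held R788, so the comparison measured the difference between the media and not the effect of the inhibitor. The other 8 libraries were unstimulated BMDMs (NS), BMDMs with either TCM and no inhibitor, and BMDMs with R788 and no TCM, 2 each. The 2 media came from different cell lines, so MYCN status and any other difference between the lines cannot be told apart. NB9464 TCM was collected over 48 h in serum-free DMEM. How NBT3L TCM was made is not given in the sources used here, nor is the vehicle for the inhibitor.

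Syk is a tyrosine kinase that couples Fc receptors, C-type lectins and integrins to calcium, MAP kinase and NF-kB signals in macrophages, and R788 is the oral prodrug of the Syk inhibitor R406. Macrophages read several components of a conditioned medium at once. Scarcity of amino acids is sensed by the kinase GCN2 and raises ATF4, which induces serine synthesis enzymes, amino acid transporters and tRNA synthetases. Glucocorticoids act through the receptor Nr3c1, low oxygen and lactate act partly through HIF1A, and type I interferons induce a characteristic set of antiviral genes.

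The 4 libraries held 53053171, 47020651, 51822054 and 54838959 counts, against a range of 44977847 to 56449685 over the 12. The labelled cell type was checked by 12 macrophage markers, which were all detected in every group, with summed levels of 2472047 to 2574529 normalized counts with NB9464 medium and 2681692 to 2723080 with NBT3L medium. Of these markers, Adgre1, which encodes F4/80, was lower with NB9464 medium, at 300719 and 301717 against 393312 and 394565, whereas Mertk and Cx3cr1 were higher. Neutrophil markers summed to 7980 to 8835 normalized counts with NB9464 medium and to 8905 to 9154 with NBT3L medium, most of it from S100a8. Of 9 lymphocyte markers, 7 were at 0 in both NB9464 libraries and 5 in both NBT3L libraries. Fibroblast markers summed to 2280 to 2486 with NB9464 medium and to 3529 to 3580 with NBT3L medium, and Col1a1 and Col1a2 were called lower. Whether collagen-bearing cells in the cultures had a part in any result was not tested. In bulk RNA, fewer cells of a type and less RNA per cell cannot be told apart. Within the R788-only pair, library SJ8 stood apart, with 16149 genes detected against 17275 to 18343 in the other libraries. It entered the comparison of the media through the estimate of spread, and through the count filter and size factors, which used all 12 libraries.

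Syk itself, the target of R788, did not differ by the test, at 41094 and 43780 normalized counts with NB9464 medium and 44194 and 43852 with NBT3L medium (log2 fold change -0.05 ± 0.05, adjusted p = 0.662). Fold changes are given as log2 of NB9464 medium over NBT3L medium with the standard error, and adjusted p-values are from DESeq2 with the Benjamini-Hochberg method unless edgeR is named. Nothing in the labels shows that the 2 libraries of a group came from separate mice or cultures. The p-values therefore measure only the spread between libraries within groups, estimated over all 12 libraries of the 6 groups.

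With R788 present, 1567 of 16281 genes differed between the media (9.62% of the genes tested), of which 575 were higher (3.53%) and 992 lower (6.09%) with NB9464 medium. Most of these differences were small. The median size over called genes was 0.44 on the log2 scale, 1017 were below 1.5-fold, and 294 reached 2-fold, 139 of them higher and 155 lower. The median log2 fold change over all genes tested was -0.01. The edgeR quasi-likelihood test called 1196 genes (7.35%), and 1187 of these were among the DESeq2 calls. Both libraries of a group were at 0 in 58 of the called genes, which had few counts in the other group, and edgeR called 19 of these 58. The plot of mean level against change shows that above about 100 normalized counts the called genes lie on both sides of 0 with more of them below.

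**Figure D1:**
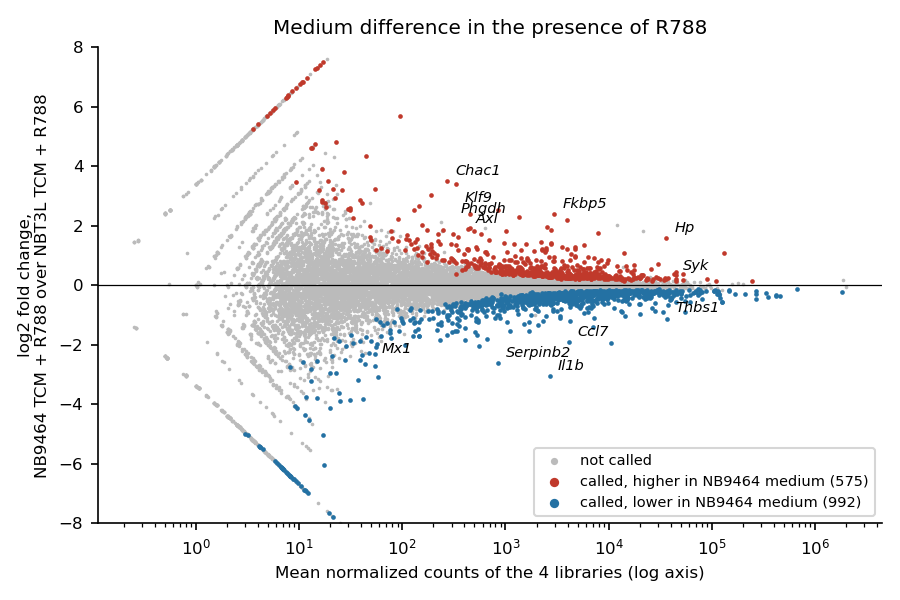
Each point is 1 of the genes tested, with the mean normalized count of the 4 libraries on a log x axis and the log2 fold change of NB9464 TCM + R788 over NBT3L TCM + R788 on the y axis. Red points (575) are called higher and blue points (992) called lower at an adjusted p under 0.05. Chac1, Klf9 and Fkbp5 sit at the top and Il1b and Serpinb2 at the bottom among well-counted genes, Syk lies at 0, and the diagonal arms on the left are genes of few counts that are at or near 0 in a group.

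The gene with the largest increase among well-counted genes was Chac1 (ENSMUSG00000027313, GRCm38 chr2:119351229-119354381, plus strand), which encodes a glutathione-degrading enzyme of the amino acid response. It was at 521 and 484 normalized counts with NB9464 medium and 33.9 and 54.3 with NBT3L medium. The log2 fold change was 3.51 ± 0.30 (adjusted p = 1.6e-28). Klf9 (ENSMUSG00000033863, GRCm38 chr19:23141226-23168134, plus strand), a zinc finger transcription factor, followed with 650 and 574 normalized counts with NB9464 medium and 76.3 and 39.2 with NBT3L medium (3.41 ± 0.36, adjusted p = 2.13e-19). Both genes were about 10-fold higher, with folds of 11.4 and 10.6.

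Trib3, a pseudokinase induced by ATF4, was at 1389 and 1484 against 270 and 224 (2.54 ± 0.16). Phgdh, the first enzyme of serine synthesis, was at 2158 and 2313 against 498 and 412 (2.30 ± 0.16). Fkbp5, a co-chaperone of the glucocorticoid receptor, was at 4778 and 5166 against 976 and 941 (2.38 ± 0.10), and Tsc22d3, which encodes the glucocorticoid-induced leucine zipper, was at 4005 and 4053 against 1032 and 1048 (1.95 ± 0.09). Hif3a, a member of the HIF alpha family, was at 258 and 239 against 32.9 and 46.2 (2.65 ± 0.55). Tubb3, a beta tubulin best known from neurons, was at 292 and 387 against 28.6 and 54.3 (3.03 ± 0.56), and Cox6a2, a subunit of cytochrome c oxidase typical of muscle, was at 830 and 706 against 148 and 148 (2.37 ± 0.32). The rest of the 12 largest rises were AI506816, Orm1 and Mir6236. AI506816, an uncharacterized transcript, was at 220 and 222 against 17 and 59.3 (2.53 ± 0.55). Orm1, the acute phase protein orosomucoid, was at 290 and 210 against 20.1 and 101 (2.04 ± 0.60), with 1 of the NBT3L libraries several-fold above the other. Mir6236 was uneven, at 10451 and 2493 against 1292 and 1571, and without library SJ9 its log2 fold change was 0.80 (adjusted p = 0.61). It was also not called without SJ11 or SJ12. For Orm1, leaving out SJ11, the lower of its NBT3L libraries, gave 1.30 (adjusted p = 0.165), and it was also not called without SJ9 (1.79).

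Among well-counted genes, averaging 100 normalized counts or more, the largest fall was that of Il1b (ENSMUSG00000027398, GRCm38 chr2:129364570-129371139, minus strand), the inflammatory cytokine interleukin 1 beta, at 569 and 580 normalized counts with NB9464 medium and 4922 and 4614 with NBT3L medium (-3.05 ± 0.10, adjusted p = 1.79e-182). This was 8.3-fold. Serpinb2 (ENSMUSG00000062345, GRCm38 chr1:107511423-107535478, plus strand), an inhibitor of urokinase made by activated macrophages, was at 203 and 271 normalized counts with NB9464 medium and 1390 and 1505 with NBT3L medium (-2.61 ± 0.34, adjusted p = 1.32e-12). Il1b overlaps the antisense transcript Il1bos, and Serpinb2 shares exon sequence on its strand with Serpinb10, and counting by strand was not given in the sources used here.

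Ccl7, a monocyte chemoattractant, was at 1720 and 1712 against 6643 and 6279 (-1.91 ± 0.06). Selenow, a small selenoprotein, was at 4475 and 4224 against 16664 and 16911 (-1.95 ± 0.12). Pdpn, the mucin-like ligand of CLEC-2, was at 206 and 225 against 885 and 880 (-2.03 ± 0.20). Each of these 3 was at least 3-fold lower in every NB9464 library than in either NBT3L library. Cav1, the caveolar coat protein, was at 255 and 343 against 975 and 1089 (-1.79 ± 0.16), and Mx1, an interferon-induced antiviral GTPase, was at 75.6 and 60 against 247 and 201 (-1.72 ± 0.23). The uncharacterized gene Gm34084 was at 185 and 162 against 586 and 672 (-1.86 ± 0.22), and Rcor2, a transcriptional corepressor, was at 91.5 and 46.7 against 196 and 251 (-1.69 ± 0.50). Serinc2 was at 61.7 and 22.2 against 173 and 169 (-2.02 ± 0.72), Mgarp, a mitochondrial protein, at 87.5 and 118 against 405 and 328 (-1.84 ± 0.51), and Disc1 at 86.5 and 31.1 against 174 and 214 (-1.72 ± 0.53). The edgeR test did not call these 3, with adjusted p-values of 0.114, 0.0512 and 0.0662. Without SJ10, the lower NB9464 library for Serinc2, Disc1 and Rcor2, their values were -1.47, -1.17 and -1.29 and none of them was called, nor was any of them without SJ11 or SJ12. Mgarp was not called without SJ9 (-1.64), SJ11 (-1.68) or SJ12 (-1.98).

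**Figure D2:**
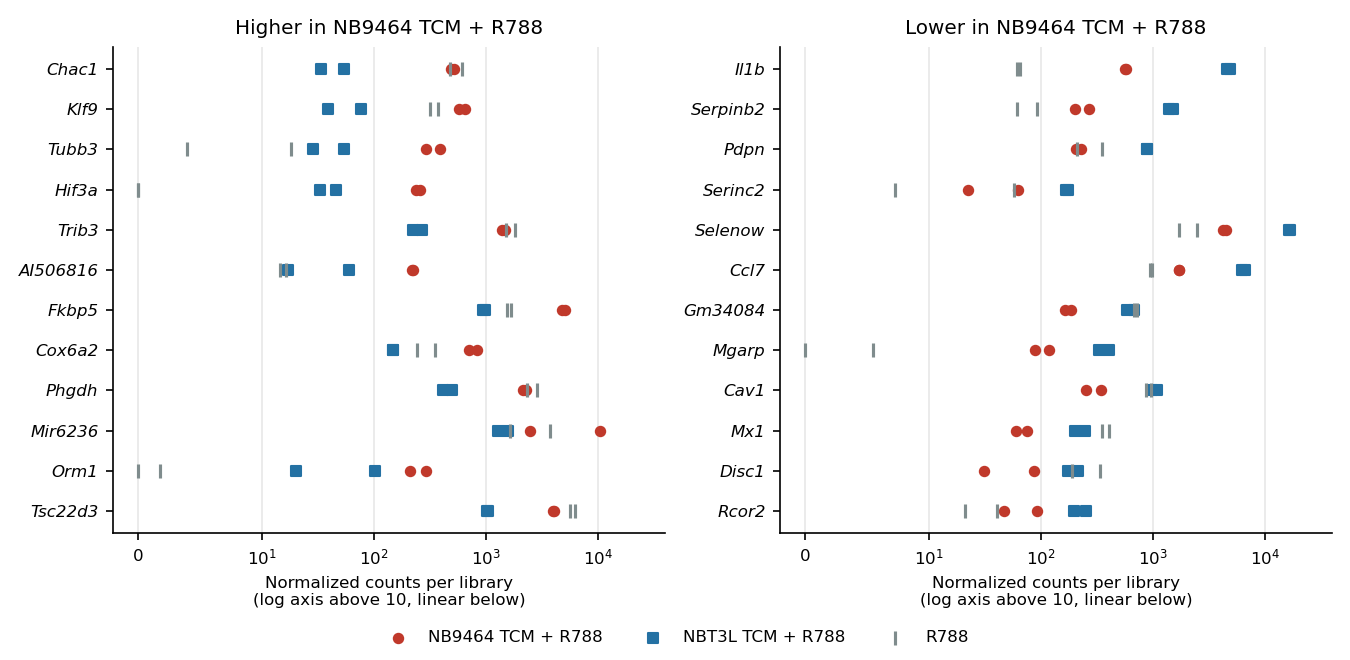
Normalized counts per library of the 12 genes with the largest rise (left) and the 12 with the largest fall (right), on an axis that is logarithmic above 10. Red circles are the 2 NB9464 TCM + R788 libraries, blue squares the 2 NBT3L TCM + R788 libraries and grey ticks the 2 R788 libraries without TCM. Genes were chosen to have no overlap of red and blue, which holds for 49.7% of all genes tested, and for Chac1, Trib3 and Phgdh the grey ticks lie beside the red circles.

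Genes of the amino acid response made up a large group of higher genes. Of 73 tested genes in 4 lists on amino acid metabolism, 38 were higher and 5 lower with NB9464 medium, beside 3.53% higher and 6.09% lower among all genes tested. These and the other lists were chosen with earlier results of these data known, so their counts are descriptions and not tests. Among the enzymes of serine synthesis and one-carbon metabolism, 10 of 18 were higher and 1 was lower, with a median log2 fold change of 0.99 beside -0.01 for all genes. After Phgdh, the next steps of serine synthesis, Psat1 and Psph, were at 3134 and 3150 against 1384 and 1396 (1.18 ± 0.09) and 500 and 570 against 259 and 358 (0.79 ± 0.21). Asns, asparagine synthetase, was at 4294 and 4372 against 1263 and 1115 (1.87 ± 0.09, adjusted p = 9.79e-96), and Pck2, the mitochondrial phosphoenolpyruvate carboxykinase, was at 3338 and 3117 against 1077 and 1270 (1.46 ± 0.10). The mitochondrial folate enzymes went in different directions. Shmt2 and Mthfd2, which take serine to formyl-tetrahydrofolate, were higher, Mthfd2 at 10924 and 10971 against 5972 and 6072 (0.86 ± 0.06). Mthfd1l, which releases formate from the mitochondrion, was lower, at 1845 and 2375 against 3534 and 3732 (-0.78 ± 0.11). The cytosolic enzyme Shmt1 was not called, at 285 and 304 against 317 and 315 (adjusted p = 0.885).

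In the list of ATF4 and its stress targets, 10 of 19 genes were higher and 2 lower (median 0.50). Among all genes tested, 3.53% were higher and 6.09% lower (median -0.01), to be read beside each list given here. Atf4 itself was at 18399 and 17385 normalized counts with NB9464 medium and 11142 and 11515 with NBT3L medium (0.66 ± 0.06), Atf5 at 5864 and 5855 against 2857 and 2851 (1.04 ± 0.10), and Sesn2, a leucine-responsive inhibitor of mTORC1, at 2304 and 2725 against 1354 and 1453 (0.84 ± 0.13). Not every gene of the response moved. Ddit3, which encodes CHOP, was at 1083 and 1130 against 823 and 789 and was not called (adjusted p = 0.0664), and Ppp1r15a, the eIF2 alpha phosphatase subunit GADD34, was at 1986 and 1755 against 2129 and 2074 (adjusted p = 0.503). Atf3 and Ddit4 were the 2 lower members, Atf3 at 9235 and 8769 against 11128 and 11271 (-0.32 ± 0.06). Of the 21 genes in the list of cytosolic tRNA synthetases, which includes the tRNA exporter Xpot, 13 were higher and none lower (median 0.30). Their differences were small and even, from 0.24 for Sars to 0.66 for Cars, and 8 genes were not called, of which Vars had the largest value (0.16). Among 15 amino acid transporters, 5 were higher and 2 lower (median 0.07). Slc7a5, the light chain of the large neutral amino acid transporter, was at 2505 and 2113 against 881 and 882 (1.39 ± 0.12), and Slc38a2, a sodium-coupled neutral amino acid transporter, was at 9159 and 9660 against 5228 and 4827 (0.90 ± 0.07). Slc7a8, the other light chain for large neutral amino acids, was lower, at 13460 and 13505 against 26317 and 26349 (-0.97 ± 0.06).

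The C/EBP-ATF element, with the letters TGATGNAA, binds heterodimers of ATF4 and a C/EBP protein, and was searched on both strands from 250 bases before to 50 bases after each RefSeq start. It was present in 13 of the 35 promoters (37.1%) of the 30 higher amino acid genes that had a RefSeq entry, and in 17 of 66 (25.8%) of the promoters of all tested members of the 4 lists. It was present in 2.48% of the 14314 promoters of tested genes, in 6.19% of those of genes called higher and in 1.91% of those of genes called lower. Letters alone do not show that a factor binds. The stretches before the start that hold the element in 5 of the higher genes are shown as examples of its letters and position, with the element in capitals on either strand (RefSeq, GRCm38.p6, written 5′ to 3′ on the strand of the gene).
Chac1 (chr2:119351009-119351096, plus strand): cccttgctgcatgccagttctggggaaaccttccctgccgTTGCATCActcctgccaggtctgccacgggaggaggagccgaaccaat
Asns (chr6:7693210-7693272, minus strand): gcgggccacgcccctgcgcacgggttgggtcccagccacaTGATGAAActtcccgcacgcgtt
Pck2 (chr14:55540123-55540210, plus strand): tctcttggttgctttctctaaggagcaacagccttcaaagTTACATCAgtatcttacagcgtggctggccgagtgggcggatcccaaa
Jdp2 (chr12:85599343-85599415, plus strand): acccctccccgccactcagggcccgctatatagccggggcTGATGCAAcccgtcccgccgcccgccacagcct
Nupr1 (chr7:126625533-126625620, minus strand): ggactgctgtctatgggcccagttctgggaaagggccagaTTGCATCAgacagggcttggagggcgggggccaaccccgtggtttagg
In Chac1 the element read TTGCATCA on the strand of the gene, the reverse complement of TGATGCAA, and lay 185 bases before the start. Pck2 held it 95 bases, Nupr1 102 bases, Jdp2 25 bases and Asns 15 bases before the start. The promoters of Phgdh, Psat1, Sesn2 and Atf5 did not hold these letters in the window searched.

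Glucocorticoid-responsive genes were another group with higher members. Of 15 tested, 7 were higher and none was lower, beside 3.53% higher and 6.09% lower among all genes, with a median of 0.83. Besides Klf9, Hif3a, Fkbp5 and Tsc22d3, these were Per1, a component of the circadian clock, at 3537 and 3333 against 1563 and 1432 (1.20 ± 0.13), Dusp1, a phosphatase of p38 and JNK, at 4105 and 3727 against 2026 and 2022 (0.95 ± 0.09), and Sgk1, a serum- and glucocorticoid-regulated kinase, at 3874 and 4125 against 2974 and 2856 (0.46 ± 0.09). Nr3c1, the receptor, was at 3572 and 3755 against 3192 and 3213 and was not called (adjusted p = 0.228). Errfi1, a feedback inhibitor of the EGF receptor in the same list, was not called, at 753 and 828 against 943 and 1036 (adjusted p = 0.172). The full glucocorticoid response element was found in 1 of the 15 promoters of the 7 higher genes, that of Sgk1, beside 0.147% of all promoters searched. Regulation of the others from beyond the window was not examined here.

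Acute phase genes and genes of lipid handling held further rises. Hp, which encodes haptoglobin, was at 54097 and 53479 normalized counts with NB9464 medium and 17746 and 18290 with NBT3L medium (1.58 ± 0.07), and Lcn2, the iron-siderophore binding lipocalin, was at 180130 and 173826 against 82093 and 84055 (1.09 ± 0.06). Cp, ceruloplasmin, was at 5239 and 5603 against 3188 and 2804 (0.86 ± 0.10). These are secreted proteins that rise in inflammation, but the list did not move as a whole. Of its 11 tested genes, 4 were higher and 1, Slpi, lower, beside 3.53% higher and 6.09% lower among all genes. Saa3, the most highly counted of them, was at 2038600 and 1937812 against 1731597 and 1803800 and was not called (adjusted p = 0.621).

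Of 14 genes of fatty acid synthesis, 4 were higher and none lower, beside 3.53% higher among all genes, and without R788 8 were higher and 2 lower. The stearoyl-CoA desaturases Scd1 and Scd2 were at 305 and 374 against 113 and 91.4 (1.73 ± 0.34) and 11877 and 13316 against 7038 and 7101 (0.83 ± 0.07), while Fasn, which makes the saturated chain, was at 4779 and 4282 against 4175 and 4591 and was not called. The cholesterol exporter Abcg1 was at 1481 and 1412 against 873 and 755 (0.83 ± 0.12), but its regulator Nr1h3, the receptor LXR alpha, was lower, at 1469 and 1444 against 2527 and 2667 (-0.83 ± 0.12). Sterol synthesis leaned the other way, with 6 of 24 genes lower and 1 higher, beside 6.09% lower among all genes. The edgeR test called 4 lower, and the DESeq2 count was smaller without SJ11 and larger without SJ8. Sqle, squalene epoxidase, was among the lower members, at 3152 and 3245 against 4183 and 4403 (-0.42 ± 0.07). Fabp4, a fatty acid binding protein of macrophages, was at 705 and 743 against 193 and 190 (1.92 ± 0.22), while its relative Fabp5 was lower, at 7983 and 7732 against 11906 and 11646 (-0.58 ± 0.09).

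Type I interferon-stimulated genes made up a large group of lower genes. Of 39 tested, 26 were lower and none was higher, with a median log2 fold change of -0.62, beside 6.09% lower and a median of -0.01 over all genes. Without R788, 30 of the 39 were lower with NB9464 medium. Stat2, a transcription factor of the pathway, was at 2105 and 2086 against 2796 and 2698 (-0.39 ± 0.07), and Irf9 was not called. Irf7, which amplifies the interferon response, was at 1095 and 1076 against 1926 and 1775 (-0.77 ± 0.07).

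Among the effectors, Rtp4 was at 1394 and 1433 normalized counts with NB9464 medium and 3303 and 3195 with NBT3L medium (-1.20 ± 0.09) and Oasl1, a regulator of Irf7 translation, at 205 and 179 against 471 and 488 (-1.32 ± 0.13). Cmpk2 and its neighbor Rsad2, which encodes viperin, were at 157 and 184 against 381 and 385 (-1.17 ± 0.14) and 134 and 243 against 362 and 388 (adjusted p = 4.18e-06). Of the Ifit genes, which bind viral RNA, Ifit1 was at 242 and 193 against 365 and 354 (-0.72 ± 0.16), Ifit2 at 265 and 248 against 498 and 450 (-0.89 ± 0.16) and Ifit3 at 77.6 and 148 against 242 and 255 (-1.15 ± 0.21). Members with no clear difference included Isg15, at 841 and 698 against 797 and 887 (adjusted p = 0.654), and Ifih1. The 26 include Ifi213, at 0 and 0 against 0 and 12.1, which the edgeR test did not call, and Ifit3 and Ifit3b are close copies between which reads may be split. Of 15 guanylate binding proteins and interferon gamma GTPases, 3 were lower (Socs1, Gbp9 and Iigp1), beside 6.09% lower among all genes. The edgeR test did not call Iigp1, and a fit of the 4 compared libraries alone called only Socs1 of them lower. With 1 compared library left out, Iigp1 ranged from -6.29 to -1.59, Gbp9 from -1.01 to -0.49 and Socs1 from -0.75 to -0.47. Gbp8 was higher on few counts, at 9.95 and 11.1 against 0 and 0, beside 3.53% higher among all genes. Socs1, a feedback inhibitor of JAK kinases, was at 1540 and 1263 against 2264 and 1996 (-0.60 ± 0.16).

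The core of the interferon-stimulated response element, GAAANNGAA on either strand, was found in 11 of the 18 promoters (61.1%) of 17 lower genes of this list. It was in 7.51% of all promoters of tested genes, in 7.69% of those of genes called higher and in 9.26% of those of genes called lower. The list holds known interferon-stimulated genes, and the share over all its tested members was not counted. The 61.1% therefore describes genes of this list and is not tied to their fall here. The stretches of 4 genes are shown, with every match in capitals, since they belong to members with per-library values given above or, for Oas3, to the same family as Oasl1.
Ifit1 (chr19:34640740-34640853, plus strand): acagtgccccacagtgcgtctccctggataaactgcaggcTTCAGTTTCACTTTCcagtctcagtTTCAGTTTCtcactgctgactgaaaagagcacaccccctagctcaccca
Ifit3 (chr19:34583334-34583475, plus strand): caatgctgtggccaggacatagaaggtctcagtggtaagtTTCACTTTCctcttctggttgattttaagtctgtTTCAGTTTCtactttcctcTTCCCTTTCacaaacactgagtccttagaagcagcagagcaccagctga
Rsad2 (chr12:26456523-26456611, minus strand): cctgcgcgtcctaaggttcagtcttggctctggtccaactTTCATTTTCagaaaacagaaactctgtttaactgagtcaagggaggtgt
Oas3 (chr5:120777680-120777774, minus strand): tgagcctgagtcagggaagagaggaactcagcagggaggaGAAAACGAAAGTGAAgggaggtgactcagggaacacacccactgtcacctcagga
Ifit1 and Ifit3 each held 3 matches, and the same 142 bases of Ifit3 stand before Ifit3b. In Ifit1 and Oas3, 2 matches overlapped each other.

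Glycolytic enzymes and HIF1A targets were mostly lower. Of 31 genes, 26 were lower and none was higher, beside 6.09% lower and 3.53% higher among all genes, with a median of -0.40. The 5 that were not called included Vegfa, at 2079 and 1853 against 1716 and 1627 (adjusted p = 0.258), and Ndrg1. The differences of the enzymes themselves were modest and tight between libraries. Ldha, lactate dehydrogenase, was at 104617 and 100735 normalized counts with NB9464 medium and 149449 and 151244 with NBT3L medium (-0.55 ± 0.05), Tpi1, triosephosphate isomerase, at 49095 and 49767 against 73362 and 72417 (-0.56 ± 0.05), and Gapdh at 151749 and 148039 against 183579 and 188583 (-0.31 ± 0.07). The lactate exporter Slc16a3 was at 19569 and 19593 against 32848 and 33630 (-0.76 ± 0.06) and the glucose transporter Slc2a1 at 11243 and 11775 against 16389 and 16252 (-0.50 ± 0.05). The members with the largest falls were Bnip3, which marks mitochondria for removal, at 1997 and 2427 against 4443 and 4617 (-1.03 ± 0.10), and Egln3, a prolyl hydroxylase of HIF, at 1167 and 1189 against 2452 and 2311 (-1.02 ± 0.12).

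Oxidative stress and chaperone genes were lower in part, beside 3.53% higher and 6.09% lower among all genes tested. Of 19 NRF2 targets and iron genes, 8 were lower and none higher, among them Hmox1, heme oxygenase 1, at 101366 and 99988 against 147966 and 149135 (-0.56 ± 0.04), Prdx1 at 229649 and 220372 against 305804 and 308723 (-0.45 ± 0.04) and Txnrd1 at 34023 and 33017 against 46408 and 46024 (-0.46 ± 0.04). Gclm and Nqo1 were not called. Of 20 chaperones and unfolded protein response genes, 12 were lower and 4 higher. The lower members were chaperones and folding enzymes, such as Pdia6, at 33086 and 33010 against 45939 and 46580 (-0.49 ± 0.05), Calr and Hspa5. The higher members were Herpud1, at 11245 and 10784 against 6592 and 7445 (0.65 ± 0.09), Atf6, Dnajb9 and Xbp1, of which 1 or 2 were called when any 1 of the 4 libraries was left out.

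**Figure D3:**
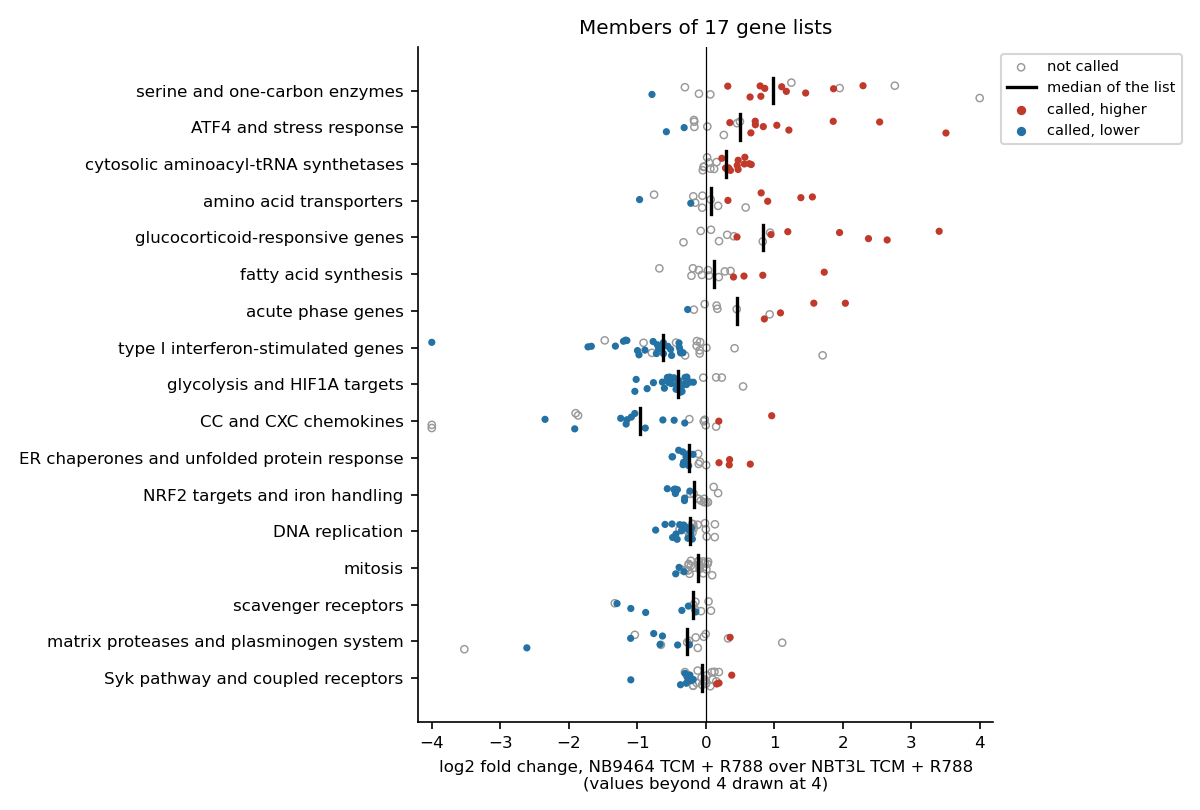
Log2 fold changes of the tested members of 17 gene lists, NB9464 TCM + R788 over NBT3L TCM + R788, with 1 point a gene, red for called higher, blue for called lower, open for not called, and a black bar at the median of the list. The serine and one-carbon list has the median farthest to the right (0.99) and the chemokine list the median farthest to the left (-0.96), and the glycolysis list has 26 blue and no red points.

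Chemokines held many of the lower calls. Of 22 tested, 11 were lower and 2 higher, beside 6.09% lower and 3.53% higher among all genes (median -0.96). The monocyte attractant Ccl2, next to Ccl7 on chromosome 11, was at 9472 and 9529 normalized counts with NB9464 medium and 20086 and 18875 with NBT3L medium (-1.04 ± 0.09). The neutrophil attractants Cxcl5 and Cxcl3 were at 626 and 614 against 1493 and 1439 (-1.24 ± 0.19) and 4928 and 4391 against 9705 and 10085 (-1.09 ± 0.38), and Cxcl1 and Cxcl2 were lower by less (-0.63 and -0.46). Ccl5, which attracts T cells, was higher, at 8342 and 8136 against 4216 and 4235 (0.96 ± 0.22). The NF-kB site was found in the promoters of 4 of the 7 lower chemokines with a RefSeq entry (Cxcl1, Cxcl2, Cxcl3 and Cxcl10), beside 5.15% of all promoters searched. The share over all tested chemokines was not counted, so the site is not tied to their fall here.

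Of 14 tested genes of the interleukin 1 family and inflammasome, 5 were lower, Il1b among them, 1 was higher and 8 were not called. Among all genes tested, 3.53% were higher and 6.09% lower. The receptor antagonist Il1rn was at 1129 and 1194 against 2808 and 3086 (-1.34 ± 0.12) and Il1a at 1362 and 1228 against 2169 and 1964 (-0.67 ± 0.12), while the inflammasome sensor Nlrp3 was not called (-0.12) and the adaptor Pycard was higher, at 2785 and 2780 against 2162 and 2085 (0.39 ± 0.09). Il1rl1 was also called lower, on counts in 1 library. Other cytokines split, with 3 of 20 higher and 4 lower, beside the same shares among all genes. Il12b, the p40 subunit shared by interleukins 12 and 23, was at 725 and 744 normalized counts with NB9464 medium and 308 and 297 with NBT3L medium (1.28 ± 0.21), Csf1 at 746 and 753 against 416 and 414 (0.85 ± 0.17) and Il10 at 912 and 941 against 634 and 623 (0.56 ± 0.18). Il6 was lower, at 227 and 210 against 454 and 526 (-1.16 ± 0.26), as were Il15, Csf3 and Tgfb1. Tnf did not pass the test, at 8185 and 7957 against 8903 and 8408 (adjusted p = 0.505). Of the genes of prostaglandin synthesis, Ptgs2, the inducible cyclooxygenase, was lower at 416 and 447 against 871 and 878 (-1.02 ± 0.20). Ptgs1, the constitutive form, was higher at 436 and 531 against 363 and 191 (0.81 ± 0.22). The Ptgs1 value was 0.41 without SJ12, its lower NBT3L library, and 1.34 without SJ11. A fit of the 4 compared libraries alone did not call Ptgs1. Arg1, arginase 1, was at 133 and 124 against 366 and 457 (-1.67 ± 0.23), and Nos2 was not called, at 1044 and 1153 against 1121 and 958 (adjusted p = 0.866).

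Factors of the NF-kB and AP-1 families held a few calls, beside 3.53% higher and 6.09% lower among all genes tested. Of 18 NF-kB factors and feedback regulators, 2 were higher and 3 lower, with Tnfaip3, the ubiquitin editor A20, at 6726 and 6718 against 4542 and 4604 (0.56 ± 0.09) and Relb at 2783 and 2811 against 4027 and 3769 (-0.48 ± 0.11). Of 17 AP-1 and early response factors, 1 was higher and 4 lower. Ier3, an early response gene that protects from cell death, was at 3463 and 3428 against 5208 and 5450 (-0.63 ± 0.08), and the other lower members were Atf3, Junb and Fosl2. The AP-1 site, TGANTCA, was in 6.52% of promoters of genes called higher, in 8.56% of those of genes called lower and in 5.67% of all promoters searched.

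Receptors for debris and lipids were lower in part, beside 3.53% higher and 6.09% lower among all genes. Of 13 scavenger receptors, 6 were lower and none higher. The mannose receptor Mrc1 was at 888 and 872 normalized counts with NB9464 medium and 2095 and 2225 with NBT3L medium (-1.30 ± 0.09), the fatty acid translocase Cd36 at 19503 and 20181 against 36490 and 36389 (-0.88 ± 0.05), and Clec7a, which encodes the Syk-coupled beta-glucan receptor dectin 1, at 367 and 293 against 691 and 719 (-1.09 ± 0.20). Of 10 tested genes of apoptotic cell uptake around Axl and Mertk, 2 were higher, 2 lower and 6 not called. The higher members were the receptors, Axl at 627 and 729 against 140 and 229 (1.87 ± 0.24) and Mertk at 4855 and 5055 against 2043 and 2035 (1.28 ± 0.09). Their ligand Gas6 was lower, at 1837 and 1635 against 2469 and 2646 (-0.56 ± 0.08), and the bridging protein Mfge8 was lower, at 1887 and 2182 against 3980 and 3515 (-0.88 ± 0.09).

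Of 30 genes of the Syk pathway and its receptors, 3 were higher and 8 lower, beside 3.53% higher and 6.09% lower among all genes. Their median was -0.06. The count of lower members was 3 without SJ11 and 11 without SJ8. Apart from Clec7a, their log2 fold changes lay between -0.37 for Clec4d and 0.38 for Fcgr2b. Fcgr2b, the inhibitory Fc receptor, was at 10367 and 10634 against 8264 and 7879 (0.38 ± 0.07), and Clec4d and Clec4e, which encode receptors for mycobacterial glycolipid, were lower, the latter by -0.28 ± 0.06. The signal chain Fcer1g and the kinase Btk were not called.

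Matrix and protease genes were lower in part, with 7 of 19 proteases and inhibitors and 6 of 13 matrix proteins and growth factor carriers lower, beside 6.09% among all genes, and 1 protease, Mmp8, higher. Thbs1, thrombospondin 1, was at 22147 and 23906 against 49701 and 50663 (-1.12 ± 0.06), Mmp14, a membrane-bound collagenase, at 28859 and 28738 against 45872 and 45458 (-0.67 ± 0.05), and Mmp9 at 3988 and 3804 against 6527 and 6667 (-0.76 ± 0.07). Among 31 DNA replication genes, 15 were lower and none higher, from -0.20 for Pcna to -0.73 for Gins2, and edgeR called 11 of them. With 1 of the 4 libraries left out, 7 to 11 were called lower, fewest without SJ12. Among 25 mitosis genes, 3 were lower and Mki67 was not called, at 5293 and 5767 against 6312 and 6832 (adjusted p = 0.0533). Few antigen presentation genes were called, beside 6.09% lower among all genes. Of 11 class II genes, 2 were lower, among them Cd74 at 2951 and 3021 against 4073 and 4319 (-0.49 ± 0.09), and of 13 class I genes 1, Psme2, was lower. Cd40, a costimulatory receptor, was at 801 and 825 against 1377 and 1290 (-0.71 ± 0.13), while the checkpoint ligand gene Cd274 was not called (-0.14).

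The levels in the 2 libraries with R788 and no TCM place these differences beside a common point. The paper does not give the base medium or serum of these cultures during R788 treatment, whereas NB9464 TCM was serum-free DMEM. A difference between TCM and R788 alone cannot be told apart from a difference in base medium or serum. The 2 libraries serve both media, so that each medium is given by its own value and no test is set on their likeness. SJ8, which stood apart as given above, is among them. The SD of the log2 difference over well-counted genes was 0.371 in this pair. Chac1 was at 613 and 475 with R788 alone, Asns at 4618 and 4693 and Phgdh at 2347 and 2861. These are close to the values with NB9464 medium and several-fold above those with NBT3L medium. The median log2 fold change of the serine and one-carbon list against R788 alone was -0.11 with NB9464 medium and -1.11 with NBT3L medium. Klf9, at 319 and 378 with R788 alone, and Fkbp5, at 1541 and 1696, lay between the media, above NBT3L and below NB9464. Il1b was at 65.4 and 60.7, below both media, and so was Ccl7 at 949 and 984. The chemokine list had medians of 0.29 with NB9464 medium and 2.59 with NBT3L medium. The glycolysis list stood above R788 alone with either medium, at 0.93 and 1.33. The interferon-stimulated genes stood below it with either medium, at -1.28 and -0.79, with Mx1 at 348 and 406 with R788 alone.

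**Figure D4:**
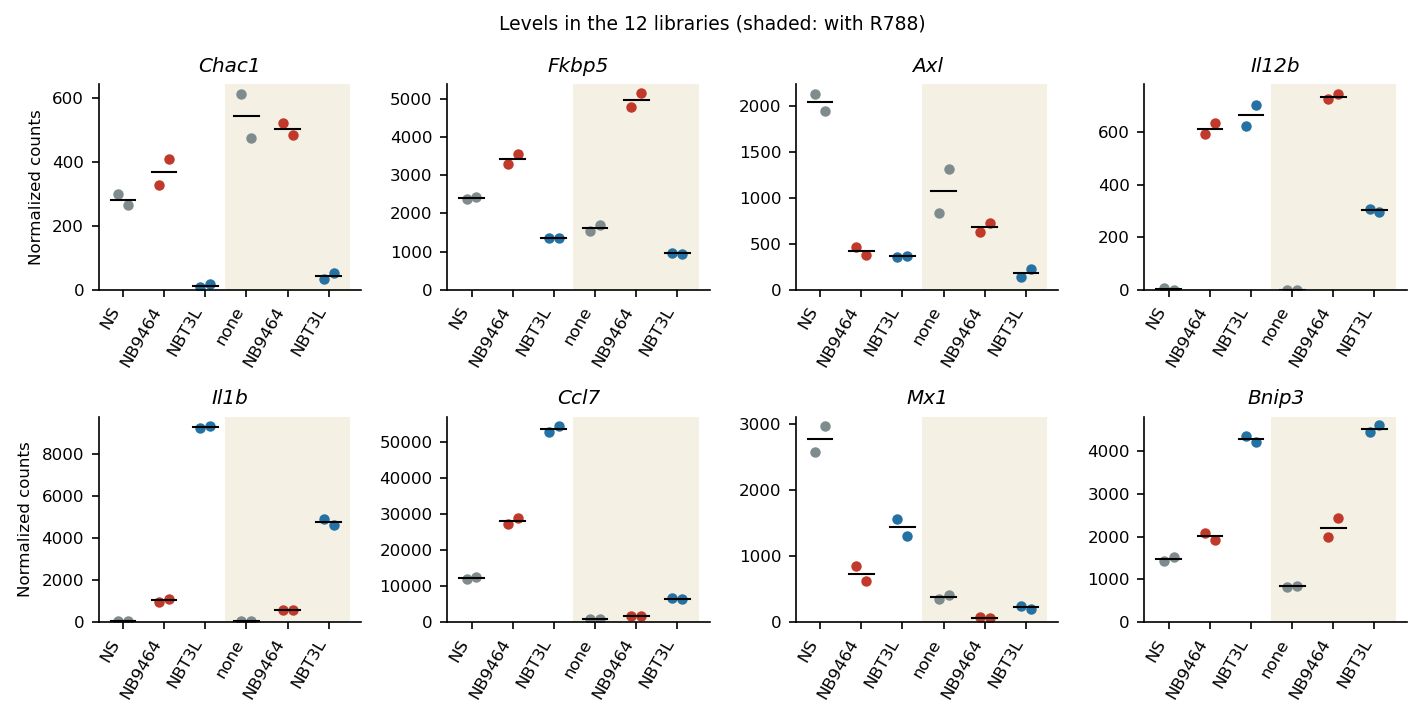
Normalized counts of 8 genes in all 12 libraries, with 1 point a library, a black bar at the mean of the 2 libraries of a group, and shading over the 3 groups with R788 ("none" is R788 without TCM). Chac1 is lowest with NBT3L medium, Il1b is highest with NBT3L medium with or without R788, and Axl and Il12b separate the media in the shaded part, where the 2 groups do not overlap.

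The same media were compared without R788 in 4 other libraries, so the 2 contrasts share no library. Without R788, 1531 genes differed (9.4% of the genes tested), 600 higher (3.69%) and 931 lower (5.72%) with NB9464 medium. Of these, 809 were called in the same direction with R788, which is 51.6% of the calls with R788 and 52.8% of the calls without it, 281 of them higher and 528 lower. Of the 754 genes called with R788 and not without it, 631 had the same sign without it, and of all genes tested 63.6% had the same sign in both contrasts. Across 10715 genes with a mean of at least 100 normalized counts, the differences with and without R788 were related with Pearson's r of 0.635 and Spearman's rho of 0.525, and over all genes tested, which include many of few counts, with 0.162 and 0.283. These are descriptions across genes, which are not independent replicates. Only 4 genes were called in opposite directions. Ccl3, which encodes a macrophage inflammatory protein, was at 26461 and 25681 against 31742 and 33176 without R788 and at 17823 and 17602 against 15431 and 15605 with it, and the others were Lilr4b, Insig1 and Abcd4. None of the 4 was called by edgeR with R788.

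Whether the difference between the media itself differed with R788 was tested by the interaction, which called 115 genes (0.706% of the genes tested), with the log2 difference higher with R788 in 46 and lower in 69. The edgeR test called 21, all among the 115. Of the 115, 41 were called between the media only with R788, 33 only without it, 38 in both and 3 in neither. Called genes that averaged 100 or more normalized counts, and in which all 16 combinations of libraries agreed in sign, were ranked by this value. Among these, Axl (ENSMUSG00000002602, GRCm38 chr7:25757273-25788705, minus strand), the receptor tyrosine kinase that recognizes Gas6, had the largest positive value. It was at 469 and 379 against 356 and 372 without R788 and at 627 and 729 against 140 and 229 with it, a change of 1.66 ± 0.33 in the log2 difference (adjusted p = 0.000375, edgeR 0.0576). Il12b was at 593 and 634 against 625 and 702 without R788 and at 725 and 744 against 308 and 297 with it (1.39 ± 0.29, adjusted p = 0.000994, edgeR 0.18). For both genes the media were close without the inhibitor and apart with it, and the level with NBT3L medium was lower with R788 than without it.

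Fkbp5 was at 3295 and 3554 against 1356 and 1357 without R788 and, as above, differed by more with it (1.04 ± 0.13, adjusted p = 3.33e-11, edgeR 0.00127). U90926 was at 3031 and 2856 against 13753 and 13681 without R788 and at 3966 and 3790 against 10114 and 10544 with it, a smaller fall (0.81 ± 0.10, edgeR 0.0343). In the other direction, Fanci, a DNA crosslink repair gene that overlaps Polg on the opposite strand, was at 403 and 360 against 277 and 253 without R788 and at 202 and 142 against 379 and 267 with it (-1.43 ± 0.34, edgeR 0.0864). Macrod1 was at 318 and 246 against 104 and 144 and 311 and 211 against 326 and 289 (-1.41 ± 0.39, edgeR 0.172), and Amz1 at 228 and 310 against 218 and 284 and 161 and 120 against 332 and 334 (-1.34 ± 0.30, edgeR 0.0726). Rgs11 was at 777 and 919 against 1124 and 1150 and 585 and 555 against 1804 and 1514 (-1.12 ± 0.22, edgeR 0.0271). Ccl7 was lower with NB9464 medium in both contrasts, at 27308 and 28740 against 52784 and 54240 without R788, and by more with it (-0.98 ± 0.08, adjusted p = 5.11e-29, edgeR 2.13e-05).

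**Figure D5:**
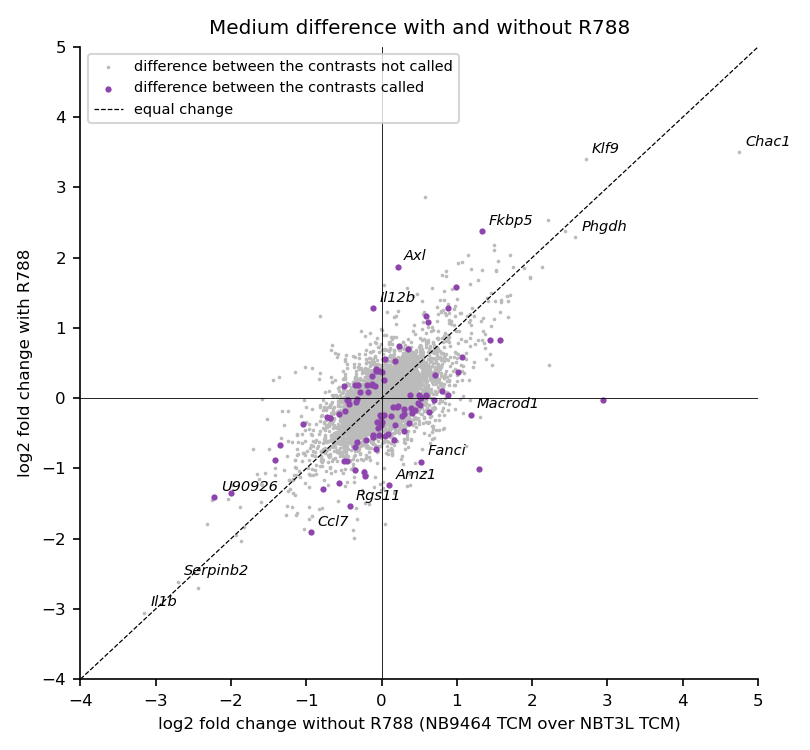
Log2 fold change of NB9464 over NBT3L medium without R788 (x axis) and with it (y axis) for the 10715 genes with a mean of at least 100 normalized counts over the 12 libraries. Purple points passed the test of the difference between the 2 contrasts, and the dashed line marks equal change. The cloud of genes rises along the line, with Axl and Il12b above it at an x near 0 and Ccl7, Amz1 and Rgs11 below it.

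Of the markers of neuroblastoma and sympathetic neurons, 8 had enough counts to be tested, and 1, Mycn, was called. Mycn was at 22.9 and 41.1 normalized counts with NB9464 medium and 0 and 0 with NBT3L medium (7.40 ± 2.02, adjusted p = 0.00446), at least 10.3-fold higher when 3 counts per library are taken as the limit for a library at 0. It was not called without SJ12 (7.35, adjusted p = 0.0796), and the fits without SJ9, SJ10 or SJ11 gave it no adjusted p. Without R788 it was at 6.7 and 23.2 against 9.9 and 13, and it was at 0 in all 4 libraries without TCM. Dbh, dopamine beta-hydroxylase, was at 0 and 0 against 15.9 and 12.1 with R788 and at 0 and 0 against 19.8 and 21.6 without it, and DESeq2 gave it no adjusted p in either contrast. The 15 markers of neuroblastoma and sympathetic neurons summed to 301 to 354 normalized counts with NB9464 medium and to 331 to 369 with NBT3L medium, most of it from Elavl4, with 8 and 5 of them at 0 in both libraries of the group. Their sum was 242 to 255 in unstimulated BMDMs and 151 to 188 with R788 alone. Whether such transcripts had a part in other differences was not tested.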

How the data were processed

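Poly(A) RNA of BMDMs was sequenced, with 2 libraries per group in 6 groups. The authors deposited raw counts per Ensembl gene. Their methods name mapping to mm10 with STAR and quantification with Salmon, and the submitters' processing notes give STAR 2.6.1d, Salmon 1.4.0, SAMtools 1.9, Picard 2.26 and MultiQC 1.11. Between 65.2% and 67.9% of low counts per library were even numbers, which mates of a pair each counted would give, so a fit to halved counts was added to the alternatives (division by 2). The annotation, the use of strand and the treatment of reads that map to several places are not given in the sources used here. The labels describe paired-end reads and 2 libraries per group, and the methods single reads in triplicate. The table of counts also held gene lengths, and all 12 of its library columns matched a label.

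Gene symbols were matched through GENCODE M21 (54165 of 54232 IDs), whose GRCm38 coordinates are given. Genes that reached 10 counts in 2 or more libraries were fitted in DESeq2 1.42.0 (R 4.3.3) with the 6 groups as the design and no shrinkage, and genes with an adjusted p under 0.05 (Benjamini-Hochberg) were called. The threshold, fit and filter are those of all 3 contrasts, with R788, without it, and their difference (the interaction). DESeq2 gave no adjusted p for 1263 genes in the first. Normalized counts are counts divided by the size factor of the library. The fits were checked on simulated counts. Alternatives were edgeR 4.0.16 (quasi-likelihood, TMM), TMM factors in DESeq2, all genes unfiltered, genes with a mean count of 50 or more, the 8 TCM libraries or the 4 compared libraries alone, a 2-fold minimum, and each library left out in turn. Libraries of a group differed beyond counting noise. The SD of the log2 difference over well-counted genes was 0.261 and 0.230 in the compared groups and 0.371 in the R788-only group. Each library was kept as a replicate, though this spread does not show that they came from separate mice or cultures. Counts cover 44977847 to 56449685 per library.

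The genes named with full values averaged 100 or more normalized counts and had no overlap between the groups, 12 with the largest change in each direction, and for the interaction 4 in each direction in which all 16 combinations of libraries agreed in sign. Ccl7 was added to the interaction genes after its values were seen. Syk and members of 40 gene lists (672 of 674 entries matched) are also named. Members and lists were chosen with earlier results of these data known. Motifs were searched in 14314 RefSeq promoters (GRCm38.p6) of 11259 tested genes.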

Additional observations from a re-analysis of the deposited data

Results flagged for a closer look

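For 29 of the genes named here, the log2 difference between NB9464 and NBT3L medium changed with R788 by the DESeq2 interaction test, which called 0.706% of the genes tested. Values are the log2 medium difference with R788 minus that without it. Those with a more positive difference with R788 were Axl (1.66), Il12b (1.39), Fkbp5 (1.04), U90926 (0.81), Il1a (0.67), Il1rn (0.66), Hp (0.59), Ccl3 (0.51), Lcn2 (0.48), Slpi (0.46), Fcgr2b (0.45) and Clec4e (0.40). Those with a more negative one were Fanci (-1.43), Macrod1 (-1.41), Amz1 (-1.34), Rgs11 (-1.12), Ccl7 (-0.98), Abcg1 (-0.74), Abcd4 (-0.72), Rtp4 (-0.64), Scd2 (-0.61), Mrc1 (-0.52), Insig1 (-0.51), Fasn (-0.45), Lilr4b (-0.45), Gas6 (-0.44), Slc13a3 (-0.40), Sqle (-0.38) and Hpgds (-0.34). The edgeR test called 7 of the 29, which were Fkbp5, U90926, Ccl3, Rgs11, Ccl7, Scd2 and Lilr4b. The interleukin 1 genes Il1a and Il1rn were lower with NB9464 medium both with and without R788, and by less with it. Scd2 and Abcg1 were higher with NB9464 medium in both and by less with R788. Sqle and Gas6 were called between the media with R788 and not without it, whereas Fasn and Macrod1 were called without it and not with it.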

How the results depend on the processing

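With 1 of the 4 compared libraries left out, the 1567 calls with R788 fell to 851 to 994, and the lone library was then assumed to vary like the other groups. Without library SJ8 of the R788-only pair, left out after seeing the data, 1977 were called. Without R788 the range was 795 to 2008 around 1531, the highest again without SJ8. The 115 interaction calls were 46 to 75 with 1 of the 8 TCM libraries left out and 233 without SJ8, were 271 in a fit of the 8 TCM libraries, and were 21 by edgeR. A 2-fold minimum left 294 calls with R788, 181 without it, 22 interaction calls and 81 of the 809 shared calls. Without R788, edgeR called 598 genes lower in place of 931, and 1033 in all.

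Of the 165 called genes named here, 26 were lost in at least 1 of the 7 planned settings that left out no library, and edgeR lost 18. The 2-fold minimum was not among these 7 and was not applied to single genes. More were lost across the 4 fits that each left out 1 compared library. Lost in each of those 4 fits were Abcd4, Ass1, Ccl3, Col1a2, Cxcl3, Ddit4, Dnajb9, Fosl2, Il10, Insig1, Ptger2, Slpi and Xbp1. Of the genes named for their interaction, Axl and Il12b were lost by edgeR, Fanci and Amz1 under 3 settings and Macrod1 under 5, and Fkbp5, U90926, Rgs11 and Ccl7 under none. Without 1 compared library, the uncalled values of Fasn ranged from -0.034 to 0.12, of Nos2 from -0.032 to 0.20 and of Macrod1 from -0.54 to 0.017, so no direction is given for these. Interferon-stimulated genes called lower numbered 26 in the main fit, 25 by edgeR, 26 with TMM factors and 21 in the 4 compared libraries alone. Glycolysis genes called lower numbered 26, 25, 26 and 26 in these fits. Counts of these lists under a 2-fold minimum are not given here. The cause of these changes was not tested. No paired analysis was made because the labels used here give no pairing of libraries between groups, only serial library numbers. With 2 libraries a group, small differences in genes of few counts were not detectable.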

Other observations

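Several gene groups not described above held calls with R788 present, beside 3.53% higher and 6.09% lower among all genes tested. Of 15 lipid-associated macrophage genes, 7 were lower and 3 higher with NB9464 medium, with a median log2 fold change of -0.18. The lower member with the largest change was Fabp5, and others were Gpnmb, a transmembrane glycoprotein of phagocytes, at 249094 and 250304 against 285514 and 286024 (-0.19 ± 0.03), and the lysosomal proteases Ctsb, at 306452 and 305364 against 363994 and 362606 (-0.25 ± 0.04), and Ctsd. The higher members were Fabp4, Lpl, lipoprotein lipase, at 50608 and 52371 against 38914 and 37717 (0.43 ± 0.05), and Apoe, at 2752 and 2679 against 2109 and 2147 (0.35 ± 0.10). Of 10 LXR targets, 3 were higher (Abcg1, Scd2 and Apoe) and 1 lower, Nr1h3. Of 9 genes of arginine, nitric oxide and itaconate metabolism, 4 were lower and none higher. Besides Arg1 these were Acod1, which makes itaconate, at 104946 and 107026 against 129715 and 131790 (-0.30 ± 0.04), Slc13a3, a dicarboxylate transporter, at 38689 and 38620 against 72476 and 71652 (-0.90 ± 0.05), and Ass1, argininosuccinate synthase. The 2 NB9464 libraries of Slc13a3 were each lower than either NBT3L library by a like amount.

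Of 17 prostaglandin and leukotriene genes, 3 were higher and 3 lower, beside 3.53% higher and 6.09% lower among all genes. Hpgds, hematopoietic prostaglandin D synthase, was at 3977 and 4241 against 6543 and 6714 (-0.69 ± 0.07), and Ptger2, a prostaglandin E receptor, at 1787 and 1759 against 1420 and 1337 (0.36 ± 0.11). Of 15 checkpoint and costimulatory genes, 2 were higher and 3 lower. Havcr2, which encodes TIM-3, was at 633 and 750 against 485 and 383 (0.67 ± 0.15), and Vsir, which encodes VISTA, at 18969 and 19380 against 15855 and 16035 (0.27 ± 0.05), while Cd40, Lgals9 and Sirpa were lower. Of 6 osteoclast markers tested, Acp5, tartrate-resistant acid phosphatase, was higher at 7897 and 7289 against 5869 and 5563 (0.41 ± 0.12), and Dcstamp was lower on few counts, at 5.97 and 0 against 21.2 and 16.1. None of the 5 dendritic cell markers and 2 mast cell and basophil markers tested was called.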
